A study of Gallus gallus with 27 samples.

Results

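Open chromatin of E2-positive neural crest cells was compared with that of negative cells at the earliest stage of a chick embryo series. The comparison used the 3 libraries whose column names carry E2 and the 3 whose names carry neg among the columns of that stage, 6 of the 27 samples in the labels, over all 140062 genomic intervals of the count table. The labels call the stage Hamburger-Hamilton stage 10 (HH10), whereas the column names carry the number 12. The columns were matched by population and replicate number, and the stage stands as HH10 on the authority of the labels alone. Of the intervals, 139591 passed the filter on low counts and were tested.

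All samples were wild-type chick embryos whose vagal region was dissected, dissociated and sorted by reporter fluorescence, with 3 biological replicates per group. E2 and NC2 are enhancer reporters that drive the fluorescent protein citrine from a plasmid. E2-positive cells came from embryos electroporated at HH4 with NC2:citrine and E2:citrine plasmids. The negative cells came from embryos electroporated at HH4 with NC2:citrine alone and were sorted as NC2-negative. The groups therefore differed in the plasmids they received as well as in the cells sorted. Negative cells are not labelled for E2, and E2-positive cells are not labelled for NC2. The labels name citrine for both reporters, and the sources used here do not say how the sort separated them. At HH18 and HH25, set beside the comparison below, cells were double-positive, E2-only (NC2-negative) or double-negative, from embryos given both plasmids at HH8 to HH9. The earliest-stage columns not used here carry DP, the name of double-positive columns, and the labels give no such group at that stage. The plasmids and populations stated for the earliest groups therefore rest on the labels alone.

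The neural crest forms at the edge of the neural plate, leaves the dorsal neural tube and migrates widely. Crest cells of the vagal level give rise to most neurons and glia of the gut and contribute to the outflow tract of the heart. ATAC-seq reads open chromatin by letting a transposase insert sequencing adapters into accessible DNA, so an interval with more reads was more accessible, was open in more of the sorted cells, or was present in more copies. In bulk libraries, fewer open cells and less accessibility per cell cannot be told apart.

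Library totals were 3014201, 2862982 and 2224335 reads for E2-positive replicates 1, 2 and 3. They were 5964784, 6195495 and 4350235 for negative replicates 1, 2 and 3, so each negative library was deeper than each E2-positive library. Levels are given as CPM, counts scaled by library totals after TMM adjustment. A floor of 3 counts, scaled by the unadjusted library totals, corresponded to 0.995 to 1.35 CPM in E2-positive and 0.484 to 0.69 CPM in negative libraries. No library held a value under 1, and whether a 1 in the table can mean 0 reads is not stated. The value 1 was held by 5.06% to 15.8% of intervals in E2-positive libraries and by 0.383% to 1.41% in negative libraries.

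E2-positive replicates 1 and 3 differed by less than the sampling noise and were counted as 1 sample, using their mean. In the fit that mean was rounded to a whole count, upward at ties, and counts summed over E2-positive samples use it. The counts of replicates 1 and 3 gave a chi-square of 0.679 per degree of freedom. The other 23 pairs of replicates among the columns used gave 2.03 to 3.97. The Spearman correlation over intervals of replicates 1 and 3 was 0.95, against at most 0.91 in those pairs. By chi-square, E2-positive replicate 2 differed from replicates 1 and 3 by more than any other of these pairs did, at 3.97 and 3.87. By Spearman correlation it did not stand out, at 0.79 and 0.77, against 0.77 to 0.78 for HH25 double-positive pairs and 0.69 for HH18 negative replicates 2 and 3. HH18 negative replicate 2 was the shallowest library used, with 992341 reads and 23.8% of its intervals at the lowest value. E2-positive cells therefore entered with n = 2 samples, the mean of replicates 1 and 3 and replicate 2, and negative cells with n = 3. Labels naming biological replicates do not say whether these came from separate pools of embryos.

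**Figure D1:**
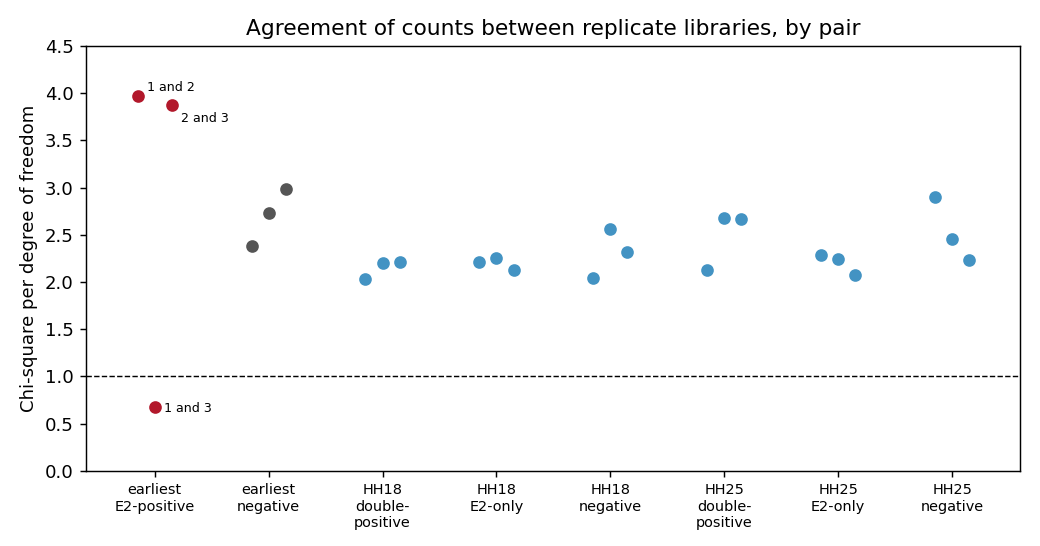
Chi-square per degree of freedom between the counts of each pair of replicate libraries among the columns used, by group. Each point is 1 pair and the dashed line marks the value expected from counting alone. E2-positive replicates 1 and 3 of the earliest stage lie at 0.679, below the line, and the other pairs of that group are the highest at 3.87 and 3.97.

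E2-positive cells differed from negative cells at 26086 intervals, 18.7% of those tested, at an edgeR quasi-likelihood adjusted p below 0.05. Of these, 14327 were higher in E2-positive cells (10.3% of tested intervals) and 11759 were lower (8.42%). The median over the higher intervals was 13.3 CPM in E2-positive and 4.41 CPM in negative cells. Over the lower intervals it was 1.93 CPM in E2-positive and 8.68 CPM in negative cells, and over all tested intervals it was 3.98 and 4.06 CPM. A fold over 2 was estimated for 13243 of the higher and 11525 of the lower intervals, and a fold over 4 for 2417 and 6256. At 521 of the lower intervals both E2-positive samples stood at the lowest value of 1, so their fitted folds are not bounds. With replicate 2 as the sole E2-positive sample 13718 intervals were called, and without replicate 2 the lower calls numbered 6252.

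The balance of the directions depended on the processing and on the E2-positive sample. Higher intervals were 54.9% of the calls with TMM scaling, 42.4% with library totals alone and 42.6% with the lowest value taken as 0. They were 66.1% without replicate 2 and 49.4% with replicate 2 as the sole E2-positive sample. The samples of the groups did not overlap at 13201 of the higher calls and 11704 of the lower calls. Over all tested intervals the E2-positive samples lay above all negative samples at 22.2% and below them at 22.5%. Called intervals spanned all levels of abundance. Split into 4 equal parts by abundance over all samples, the highest had 15.7% of its intervals higher and 8.84% lower. The lowest had 7.21% and 5.33%.

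**Figure D2:**
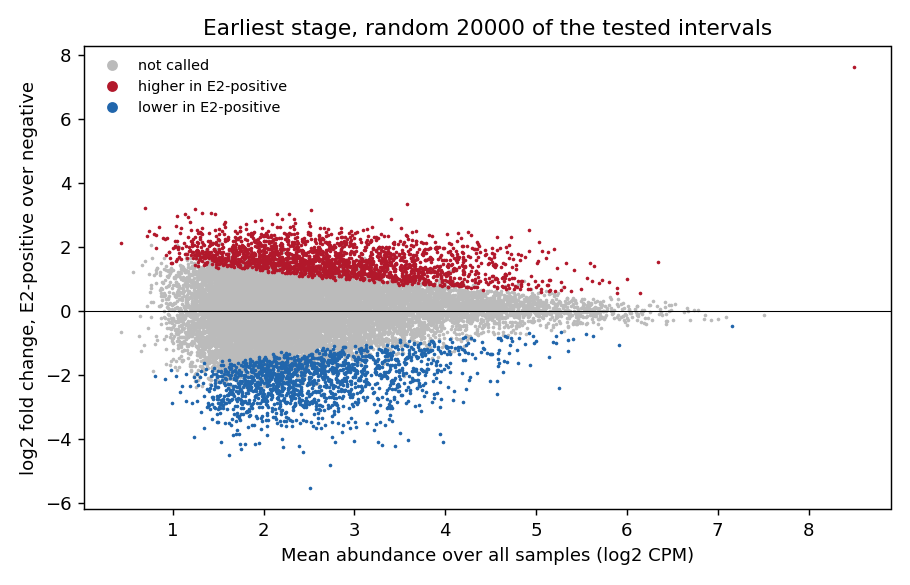
Log2 fold change of E2-positive over negative cells against mean abundance over all samples (log2 CPM), for a random 20000 of the tested intervals; red and blue points passed the edgeR test as higher or lower and grey points did not. Higher and lower calls occur across the abundance range, and 1 interval stands apart near the upper right corner.

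That interval, at position 153949737 to 153949937 of chromosome 1 (galGal5, as the table lists it), had the largest rise. It held 1866 CPM in the mean of E2-positive replicates 1 and 3 and 2123 CPM in replicate 2. Negative replicates 1, 2 and 3 held 10.6, 10.5 and 8.84 CPM. Both E2-positive samples lay far above every negative sample, and the samples within each group lay close together. The means were 1995 ± 182 CPM (SD, n = 2) and 10 ± 1.02 CPM (SD, n = 3), a log2 fold change of 7.63 (SE 0.18, edgeR adjusted p = 2.2e-65). The next interval along the chromosome, at 153952820 to 153953020, was chosen after its values were seen. It held 14.1 and 72.9 CPM in the E2-positive samples and 4.19, 2.71 and 2.59 CPM in negative replicates 1, 2 and 3. The groups did not overlap, but the E2-positive samples lay far apart from each other. The log2 fold change there was 3.78 (SE 0.35, edgeR adjusted p = 1.9e-14). At HH18 this neighbour held 25 ± 11.9 CPM in E2-only, 67.4 ± 13.3 in double-positive and 5.58 ± 4.3 CPM in negative cells (SD, n = 3 each). At HH25 it held 17.2 ± 4.6, 42.8 ± 1.77 and 5.2 ± 2.97 CPM in the same order.

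The chromosome 1 interval with the largest rise was also high in the E2-labelled groups at HH18. Its level then was 695 ± 127 CPM in E2-only, 639 ± 82.4 CPM in double-positive and 26.3 ± 5.56 CPM in negative cells (SD, n = 3 each). At HH25 it was 19.7 ± 3.54, 45.9 ± 9.7 and 9.21 ± 1.95 CPM in the same order. The E2-positive groups lay above the negative group at each stage, and the level in E2-positive groups fell with stage. The E2-against-negative change was larger at the earliest stage than at HH18 by 2.85 on the log2 scale, a description, since the interval was chosen by its earliest change. An electroporated reporter carries a copy of a genomic enhancer, and reads from a plasmid copy and from the genome cannot be told apart in these counts; whether this interval holds the E2 enhancer was not tested.

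On average over the E2-positive samples 4 intervals exceeded 1000 CPM. The most abundant, at 49766663 to 49766863 of chromosome 2, held 3502 and 3724 CPM in E2-positive and 3191, 2898 and 3703 CPM in negative samples. The groups overlapped there and the interval was not called (log2 fold change 0.15, SE 0.1, edgeR adjusted p = 0.35). The remaining pair lay at 27835367 to 27835567 of chromosome 8 and at 4040 to 4240 of an unlocalised contig of chromosome 8. On chromosome 8 the E2-positive samples held 1447 CPM (mean of replicates 1 and 3) and 2564 CPM (replicate 2), and negative replicates 1, 2 and 3 held 621, 408 and 392 CPM. The contig interval held 1489 and 2583 CPM in the E2-positive samples and 653, 419 and 397 CPM in the negative libraries. In both, every E2-positive sample exceeded every negative library, and the negative libraries were themselves high. The near-equal values of the pair leave their assignment to 1 or 2 genomic copies uncertain.

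At the chromosome 8 interval the means were 2005 ± 790 CPM (SD, n = 2) and 474 ± 128 CPM (SD, n = 3), a log2 fold change of 2.08 (SE 0.17, edgeR adjusted p = 5.9e-17). At HH18 the level was 213 ± 47.9 CPM in E2-only, 228 ± 57.3 CPM in double-positive and 8.12 ± 2.47 CPM in negative cells (SD, n = 3 each). At HH25 the means were 3.26, 12.6 and 1.2 CPM. The interval was high in both earliest groups, which both received NC2:citrine. The chromosome 1 interval was high in the E2-positive group, which received E2:citrine. Negative cells of HH18 and HH25 came from embryos given both plasmids. They held 8.12 and 1.2 CPM at the chromosome 8 interval, and 26.3 and 9.21 CPM at the chromosome 1 interval. NC2 is known as an enhancer of FOXD3, a transcription factor that specifies neural crest. Whether the chromosome 8 interval holds NC2, and whether its reads come from plasmid, was not tested.

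**Figure D3:**
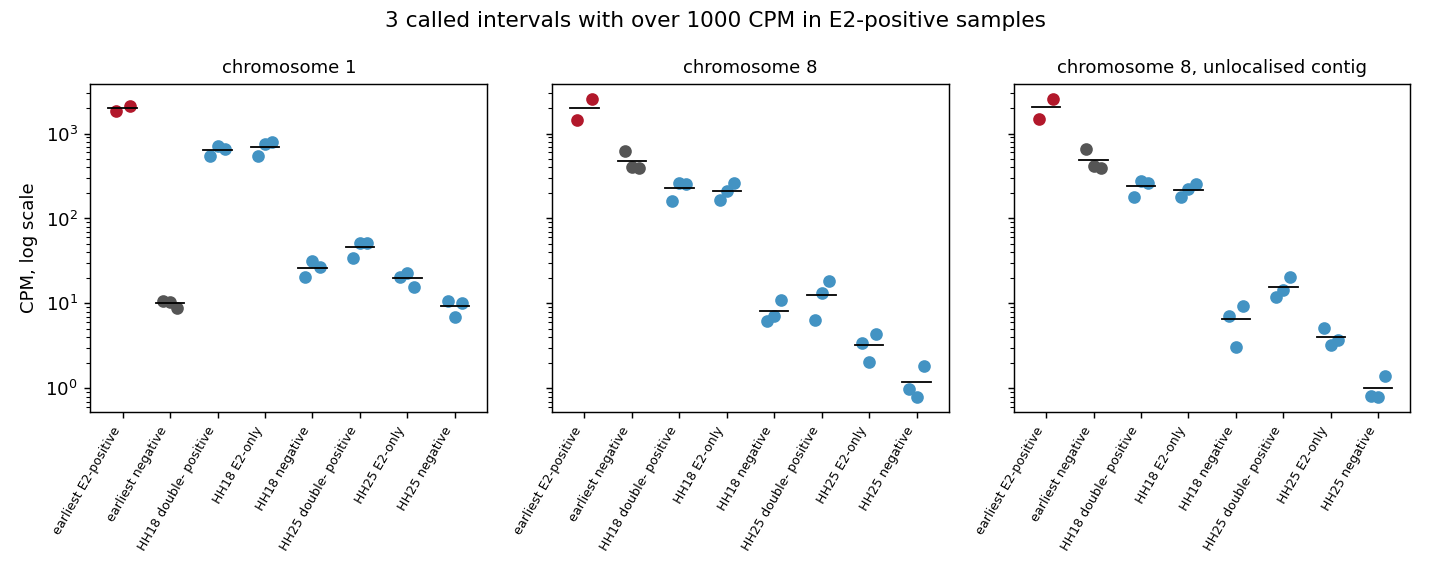
Level (CPM, log scale) of the 3 called intervals above 1000 CPM in E2-positive cells, in every sample of the earliest stage, HH18 and HH25; points are samples and bars are group means. The chromosome 1 interval is near 10 CPM in earliest negative cells, where both chromosome 8 intervals lie between 392 and 653 CPM, and in E2-positive groups all 3 fall with stage.

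The rest of the 10 intervals with the largest rise had lower levels. The 10 were ranked with at most 1 interval kept per 10 kb. That rule left out the next interval along chromosome 1, whose log2 fold change of 3.78 exceeded those of the rest. The second by fold among those kept, at 7639 to 7839 of an unlocalised contig of chromosome 4, held 1.29 and 3.44 CPM in the E2-positive samples. Negative replicates 1, 2 and 3 held 0.161, 0.301 and 0.216 CPM there. The means, 2.36 and 0.226 CPM, lay under the medians over all tested intervals, 3.98 and 4.06 CPM. Deposited counts for this interval were 3, 10 and 2 in E2-positive replicates 1, 2 and 3. It did not pass the filter on low counts in a fit of the earliest-stage libraries alone. It rested on 13 E2-positive and 4 negative counts (log2 fold change 3.25, SE 0.79, edgeR adjusted p = 0.0014), and was not called without replicate 2 (2.35, adjusted p = 0.2) or at HH18 (0.46, adjusted p = 0.52).

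Among the others, at 22108972 to 22109172 of chromosome 6 the E2-positive samples held 31.3 and 39.5 CPM and negative replicates 1, 2 and 3 held 5.16, 3.46 and 3.66 CPM. At 2858663 to 2858863 of chromosome 28 they held 39.8 and 43.3 CPM against 5.64, 6.63 and 3.02 CPM. At 5263477 to 5263677 of chromosome 23 they held 36.4 and 29.9 CPM against 5.16, 4.82 and 2.37 CPM. In all 3 the E2-positive samples lay close together and well above the negative libraries.

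Their log2 fold changes were 3.1 (SE 0.38, edgeR adjusted p = 1e-09), 3 (SE 0.38, adjusted p = 3.1e-09) and 2.97 (SE 0.41, adjusted p = 3.3e-08). At HH18 the same intervals held 4.02 ± 0.946, 3.19 ± 0.486 and 1.4 ± 0.919 CPM in E2-only cells (SD, n = 3), and 2.53 ± 0.521, 1.71 ± 0.906 and 1.66 ± 0.56 CPM in negative cells. None of the 3 was called between E2-only and negative cells at HH18. The earliest change exceeded the HH18 change by 2.46, 2.25 and 3.21 on the log2 scale in the order above, values given as a description because the intervals were chosen by their earliest change.

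Other intervals of the 10 were also higher in E2-only cells at HH18. At 809843 to 810043 of chromosome 19 the E2-positive samples held 21.4 and 12.7 CPM and negative replicates 1, 2 and 3 held 0.968, 3.01 and 1.51 CPM. The groups did not overlap, and the log2 fold change was 3.16 (SE 0.45, edgeR adjusted p = 7.7e-08). At HH18 this interval held 20.6 ± 4.29 CPM in E2-only, 1.94 ± 1.94 CPM in double-positive and 3.23 ± 0.959 CPM in negative cells (SD, n = 3 each).

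At 20855179 to 20855379 of chromosome 8 the earliest E2-positive samples held 24.4 and 9.97 CPM and the negative libraries 1.77, 2.71 and 1.29 CPM. At HH18 that interval held 37.2 ± 2.6 CPM in E2-only, 6.97 ± 0.753 in double-positive and 7.42 ± 3.84 CPM in negative cells. At 30823709 to 30823909 of chromosome 7 the earliest samples held 24.8 and 4.12 CPM against 1.29, 1.66 and 2.37 CPM. The lower E2-positive value there was replicate 2, and with replicate 2 as the sole E2-positive sample the interval was not called (log2 fold change 1.24, edgeR adjusted p = 0.24). Of the 10 intervals, 6 were called higher in E2-only cells at HH18 and 2 in double-positive cells, each against the HH18 negative cells that both comparisons share. Over all tested intervals the shares called higher were 17.7% and 15.6%, so the count in double-positive cells was near the background.

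The 10 intervals with the largest fall were at or near the lowest value in E2-positive cells. Each held at most 3 counts summed over the E2-positive samples, 0.386 to 0.6 CPM on average, and 11.2 to 20.4 CPM in negative cells. At 24916322 to 24916522 of chromosome 1 the E2-positive samples held 0.428 and 0.344 CPM and negative replicates 1, 2 and 3 held 22.6, 12.4 and 22.2 CPM. That is a ratio of negative to E2-positive cells of 48.8, with an exact 95% interval of 13.4 to 404 that covers counting error only. This takes each deposited 1 as a read; were these 0 reads, the counts would set no upper limit on the ratio where the E2-positive values were all 1. At HH18 it held 5.33 ± 0.427 CPM in E2-only and 3.55 ± 1.58 CPM in negative cells (SD, n = 3).

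At 17696939 to 17697139 of chromosome 5 the E2-positive samples also held 0.428 and 0.344 CPM, against 19.8, 17.3 and 17.5 CPM in negative replicates 1, 2 and 3. The ratio was 47.9 (13.1 to 397). This interval was low in E2-only cells at HH18 as well, at 1.91 ± 0.966 CPM against 11.9 ± 3.56 CPM in negative cells (SD, n = 3; edgeR adjusted p = 7.8e-07).

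At 135518078 to 135518278 of chromosome 2 the E2-positive samples held 0.428 and 0.687 CPM against 23.1, 15.7 and 19.6 CPM, a ratio of 33.8 (11.5 to 165). At HH18 E2-only cells stood apart there, with 5.09 ± 0.476 CPM against 26.7 ± 3.77 in double-positive and 20.2 ± 3.56 CPM in negative cells. At 29413341 to 29413541 of chromosome 2 the E2-positive samples held 0.428 and 0.687 CPM against 17.7, 15.2 and 21.6 CPM, a ratio of 31.1 (10.5 to 152). That interval held 19.2 ± 7.1 CPM in E2-only cells at HH18, 13.4 ± 3.16 in double-positive and 16.4 ± 1.18 CPM in negative cells. Of the 10 intervals, 6 were called lower in E2-only cells at HH18 and 3 in double-positive cells, where the shares of all tested intervals called lower were 13.3% and 15.3%.

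**Figure D4:**
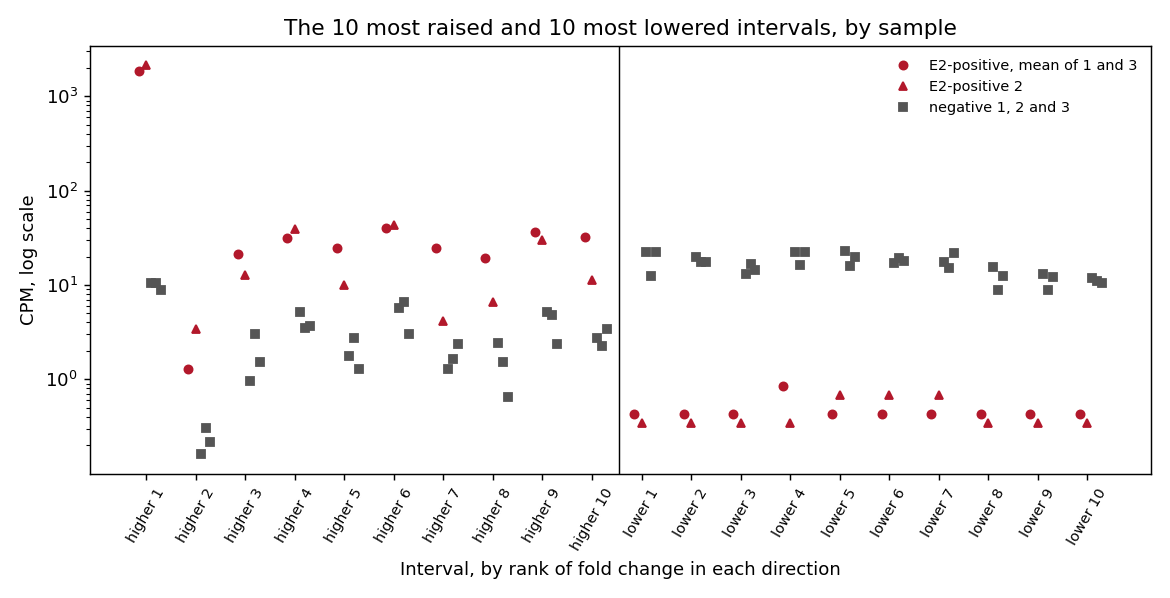
Level (CPM, log scale) in each earliest-stage sample of the 10 intervals with the largest rise and the 10 with the largest fall among called intervals above the median abundance over all samples. At most 1 interval per 10 kb was kept in each direction. E2-positive samples (red) and negative samples (grey) do not overlap at any of them, which the choice of intervals required; the first interval reaches 2123 CPM, and the 10 lowered intervals hold at most 3 counts over the E2-positive samples.

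Lower calls were also present among intervals open in both groups. At 95947062 to 95947262 of chromosome 3 the E2-positive samples held 14.1 and 10.3 CPM and negative replicates 1, 2 and 3 held 55, 52.1 and 60.8 CPM. The groups were well apart, with a log2 fold change of -2.2 (SE 0.28, edgeR adjusted p = 2.1e-09). At HH18 the interval was lower again, at 10.5 ± 4.82 CPM in E2-only against 32.4 ± 1.94 CPM in negative cells (SD, n = 3; adjusted p = 2.5e-07). At 2722111 to 2722311 of chromosome 2 the E2-positive samples held 18 and 11.3 CPM against 63.7, 63.4 and 56 CPM, a log2 fold change of -2.07 (SE 0.3, adjusted p = 1.3e-07). There the HH18 negative cells were low too, at 9.25 ± 2.97 CPM against 6.11 ± 2.34 CPM in E2-only cells. That interval was not called at HH18. Smaller falls were estimated at 19934913 to 19935113 and 84004576 to 84004776 of chromosome 2, at -1.07 and -1.01 on the log2 scale. Without replicate 2 these estimates shrank to -0.56 and -0.77, and both intervals lost the call. The second of these intervals was higher in E2-only than in negative cells at HH18 (log2 fold change 1.04, edgeR adjusted p = 3e-04).

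Called intervals lay near others called the same way. Of the higher intervals 36.9% had another higher interval within 10 kb, against 22.4% of all tested intervals. Of the lower intervals 30.6% had another lower interval, against 19.2%. A lower interval lay within 10 kb of 15.2% of the higher intervals, and a higher interval within 10 kb of 18.1% of the lower intervals. The backgrounds were not matched for chromosome class or for how densely intervals lie. The 100 kb window with the most higher calls, from 139800000 to 139900000 of chromosome 1, held 17 higher and 0 lower calls among 23 tested intervals. Summed over the window, the E2-positive samples held 377 and 345 CPM and negative replicates 1, 2 and 3 held 143, 135 and 130 CPM. At HH18, 14 of its intervals were higher and 1 was lower in E2-only than in negative cells. Over all tested intervals the HH18 shares were 17.7% higher and 13.3% lower.

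The window with the next most higher calls, 27100000 to 27200000 of chromosome Z, held 15 among 22 tested intervals. The E2-positive samples summed to 2247 CPM (mean of replicates 1 and 3) and 1349 CPM (replicate 2), and the negative libraries to 976, 838 and 926 CPM. The E2-positive samples were both higher but far from each other. At HH18 the window had 0 calls in either direction. The share of counts on chromosome W, which female birds carry, was 0.342% and 0.289% in E2-positive replicates 1 and 3, 0.2% in replicate 2 and 0.184% to 0.214% in negative libraries. Replicate 2 lay within the negative range for chromosome W and above it for the window. Replicates 1 and 3 lay above the negative range for chromosome W, and their mean had the larger window sum. The share on all of chromosome Z was 4.05% and 3.95% in replicates 1 and 3, 4.65% in replicate 2 and 4.58% to 5.31% in negative libraries. The part of these shares in the window's result was not tested.

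Among windows with lower calls, 48900000 to 49000000 of chromosome 2 held 10 lower and 0 higher calls among 20 tested intervals. The E2-positive samples summed to 27.4 and 33.3 CPM there, and negative replicates 1, 2 and 3 to 109, 100 and 101 CPM. The samples within each group lay close together. At HH18 the mean sums were 73.4 CPM in E2-only and 103 CPM in negative cells, with 5 lower and 2 higher calls. Over all tested intervals the HH18 shares were 13.3% lower and 17.7% higher. The window from 67400000 to 67500000 of chromosome 2 also held 10 lower calls, with 1 higher, among 22 tested intervals. The E2-positive samples summed to 117 and 86.9 CPM there, and the negative libraries to 174, 193 and 190 CPM. At HH18 it had 8 lower and 0 higher calls.

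The share of calls differed between classes of chromosome. On chromosomes 1 to 5, 8.58% of tested intervals were higher and 9.91% lower. On chromosomes 11 to 33, mostly the small microchromosomes of birds, 13.2% were higher and 6.05% lower. On unlocalised and unplaced contigs 19.2% of 8392 intervals were higher and 2.5% lower. Intervals that were not called were shifted in the same order. Their median log2 fold change was -0.06 on chromosomes 1 to 5, 0.16 on chromosomes 11 to 33 and 0.39 on contigs. In these classes the shares thus go with a shift of the whole class. Chromosome W went otherwise, with 7.69% of 104 tested intervals higher and a median of 0.43 over those not called. Between E2-only and negative cells at HH18 the contigs went the other way, with 7.16% higher and 22% lower. On chromosomes 11 to 33 the HH18 shares were equal, 14.7% in each direction. At the earliest stage the median difference over contigs, on the log2(CPM + 1) scale, was 0.25 for the mean of replicates 1 and 3 and 0.56 for replicate 2. The sources used here do not say how reads that match several places were treated.

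**Figure D5:**
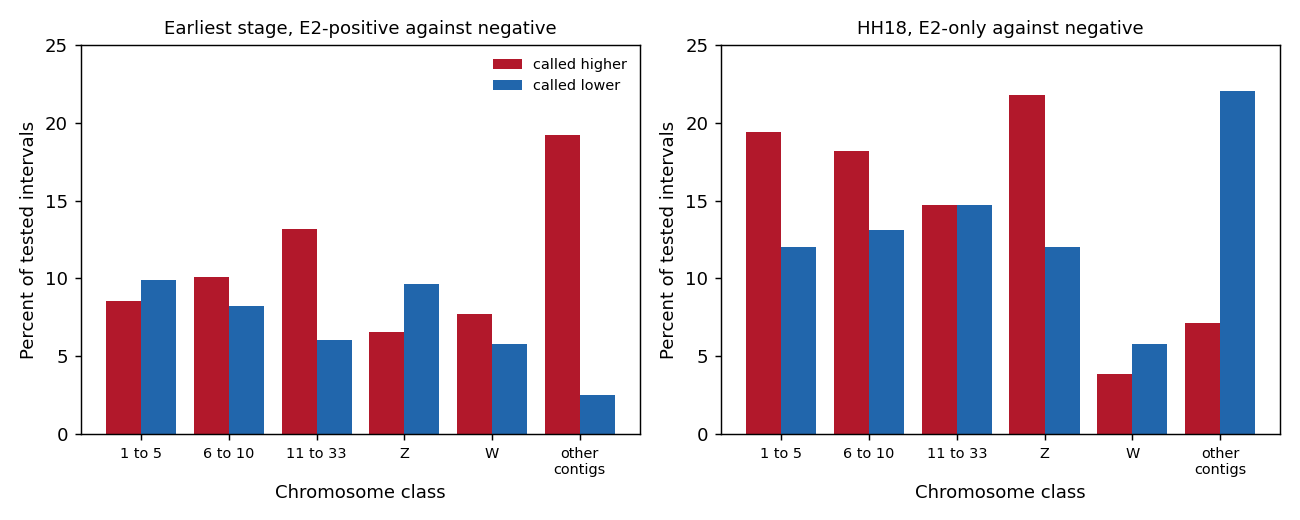
Percent of tested intervals called higher (red) or lower (blue) by chromosome class, for E2-positive against negative cells at the earliest stage (left) and E2-only against negative cells at HH18 (right). Unlocalised and unplaced contigs have 19.2% higher calls on the left and 22% lower calls on the right.

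Intervals higher at the earliest stage were often higher in E2-only cells at HH18. The comparisons had no library in common but came from the same fit, which shared the spread of each interval between them. The background shares below are over all tested intervals and were not matched for abundance or spread. Between E2-only and negative cells at HH18, 31% of all tested intervals were called, 17.7% higher and 13.3% lower. Of the 14327 intervals higher at the earliest stage, 7189 (50.2%) were higher at HH18 and 980 (6.84%) lower; the 7189 were 29.1% of the HH18 higher list. Their median log2 fold change at HH18 was 1.1, against 0.01 over all tested intervals. Over these 14327 intervals the median level was 9.44 CPM in E2-only, 4.54 in double-positive and 4.41 CPM in negative cells at HH18.

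Of the 11759 intervals lower at the earliest stage, 3939 (33.5%) were lower in E2-only cells at HH18 and 523 (4.45%) higher; the 3939 were 21.2% of the HH18 lower list. Their median log2 fold change at HH18 was -0.76. Their median level was 2.6 CPM in E2-only, 3.12 in double-positive and 4.78 CPM in negative cells.

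The double-positive cells of HH18 were compared with the same HH18 negative libraries. There 30.9% of all tested intervals were called, 15.6% higher and 15.3% lower. Of the intervals higher at the earliest stage 2749 (19.2%) were higher and 1810 (12.6%) lower, with a median log2 fold change of -0.06 against -0.15 over all. Of those lower at the earliest stage 3066 (26.1%) were lower and 1198 (10.2%) higher, with a median of -0.52. The share of the earliest higher list that was called higher was thus close to the background in double-positive cells, and was 50.2% against a background of 17.7% in E2-only cells; the difference between these was not tested.

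At HH25, 6.13% of all tested intervals were called between E2-only and negative cells, 3.43% higher and 2.7% lower. Of the intervals higher at the earliest stage 798 (5.57%) were higher and 92 (0.642%) lower, and of those lower at the earliest stage 608 (5.17%) were lower and 142 (1.21%) higher. In double-positive cells at HH25, 19.4% of all tested intervals were called, 12.4% higher and 7.07% lower. There 2759 (19.3%) of the earliest higher list were higher and 2087 (17.7%) of the earliest lower list were lower.

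The E2-against-negative change itself differed between the earliest stage and HH18 at 14058 intervals, 10.1% of those tested, by edgeR's interaction test at an adjusted p below 0.05. It was higher at the earliest stage at 6779 (4.86%) and lower at 7279 (5.21%). Without E2-positive replicate 2 these counts were 6443, 3553 and 2890. Stage, the plasmids given to the negative embryos, the stage of electroporation and the sorting of NC2 cannot be told apart in this difference.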

How the data were processed

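The authors deposited raw read counts per interval, all whole numbers. The transposase reaction ran for 20 min and amplification for 11 cycles, and reads were paired, 40 bp each, per the labels' protocols. Per the submitters' processing notes, Bowtie 1.0.0, MACS2, HOMER 4.7 and galGal5 were used. The sources used here do not say how intervals were chosen, or whether read ends were shifted or duplicates removed. Of the intervals, 140061 are 200 bp wide, and whether coordinates count from 0 or 1 is not given. No annotation of galGal5 was used, so intervals are named by position alone.

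Columns were matched by population and replicate number. The remaining 3 columns of the earliest stage carry DP, as the double-positive columns of HH18 and HH25 do. The labels give no double-positive group at the earliest stage and name NC2-positive cells instead. Whether the E2 and neg columns follow the labels or the naming of the later stages was not tested. The DP columns were not used, so the planned comparison with NC2-positive cells was not made. The planned fit over 27 libraries used 24. In edgeR 4.0.16 (R 4.3.3), filterByExpr, TMM scaling and a quasi-likelihood fit with 1 mean per group were applied to these libraries together, and p-values were Benjamini-Hochberg adjusted over all tested intervals; all adjusted p of intervals come from this test. Each interval was given the same spread in all groups, estimated over all libraries of the fit, later stages included. The SE and p-values therefore assume that E2-positive samples varied like the other groups. SE values derive from the F statistic. CPM use TMM-scaled totals. Intervals were called at adjusted p below 0.05. The procedure was also run on simulated counts with known changes. The simulation gave every group the same spread, so it does not cover a group whose samples vary more, and nothing is concluded from it. Named intervals were the 10 with the largest fold in each direction among calls that did not overlap and lay above the median abundance, the 5 most abundant in each direction with a fold over 2, and the 3 windows with most calls in each direction, at most 1 per 10 kb. The median abundance was taken over all libraries of the fit, later stages included, and not over the compared groups. Members, lists and rules were chosen with earlier results of these data known. Alternatives covered scaling, filtering, DESeq2 1.42.0, thinning, thresholds, the replicate block and left-out libraries. Those left out were the libraries of the earliest groups and of HH18 E2-only and negative cells. Floors and intervals on counts cover counting error alone, since amplified reads are not separate molecules.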

Additional observations from a re-analysis of the deposited data

Results flagged for a closer look

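The change between E2 and negative cells differed between the earliest stage and HH18 at 14058 intervals (10.1% of those tested) by edgeR's interaction test, 6779 with a higher (4.86%) and 7279 with a lower value (5.21%) at the earliest stage. The interval with the largest rise, on chromosome 1, was among them, with a difference of 2.85 on the log2 scale between the stages' changes. Of the 10 intervals with the largest rise 5 passed that test, and of the 10 with the largest fall 9. These 20 were chosen by the earliest-stage change that enters the test, so their counts are a description.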

How the results depend on the processing

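Counts below are for all calls, higher calls and lower calls, in that order, with 26086, 14327 and 11759 as reported for the earliest stage, 14058, 6779 and 7279 for the stage difference, and 7189 higher and 3939 lower calls shared with HH18. At an adjusted p below 0.01 they were 15285, 8389 and 6896; 5976, 3106 and 2870; and 4304 and 1864. Higher calls were 9092 with the lowest value taken as 0, and 21607 of 38384 calls with the 3 E2-positive columns as separate samples, an alternative chosen after seeing the data. With library totals alone the lower calls shared with HH18 were 5939, and the median over every tested interval moved from 0.05 to -0.11 (log2). DESeq2 called 22541 intervals.

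Leaving out 1 library at a time, the mean of E2-positive replicates 1 and 3 included, gave 13718 to 27548 calls, 6779 to 15187 higher and 6252 to 12487 lower. The stage difference gave 6443 to 14295, 3553 to 6899 and 2890 to 7396, and the shared calls 3008 to 7497 and 2402 to 4115. Without the mean of replicates 1 and 3, calls were 13718, with 6779 higher and 6939 lower, and shared calls 3008 and 2441. Without replicate 2, lower calls were 6252, the stage difference 6443 and shared lower calls 2402. Double-positive libraries and all HH25 libraries stayed in each of these fits. A lone E2-positive sample is assumed to vary like the other groups. With a replicate block within each stage there were 20288 calls, 10528 higher and 9760 lower. The labels do not say that numbers pair samples, and replicate 2 of the groups did not deviate together (correlation -0.06).

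Of 827 values of 36 named intervals under 23 alternatives, 822 kept direction and call, 5 lost the call and 0 reversed. The second interval by rise, on the chromosome 4 contig, had no value in the fit of the earliest-stage libraries alone. It did not pass the filter on low counts there. Most named intervals were chosen as calls of the main fit, so a high share of kept calls was partly built in. With 2 E2-positive samples at lower depth than the negative libraries, low intervals are the least certain.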
